A study of Mus musculus with 10 samples.

Results

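The 8 genes that encode the DNA methyltransferases with their cofactors and the TET enzymes, Dnmt1, Uhrf1, Dnmt3a, Dnmt3b, Dnmt3l, Tet1, Tet2 and Tet3, were followed in the frontonasal prominence (FNP), from which the forehead and nose develop. They were chosen by name, as 8 of the 35542 genes in the count table, and all 8 are in it. RNA-seq was carried out on FNP dissected from E10.5 mouse embryos of the FVB/NJ strain. The tested embryos were homozygous for MommeD1 (MD1), an allele of Smchd1 that disrupts the gene, and gave 4 libraries, 2 labelled female and 2 labelled male. The wild-type (WT) embryos gave 6 libraries, 3 female and 3 male. The allele is carried by every cell of the embryo from conception, and female homozygotes are known to die around mid-gestation. The comparison asks what loss of SMCHD1 does to expression in this tissue. The labels do not say whether each library came from a separate embryo, so p-values here measure the spread between libraries, part of which may be technical.

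Methylation of cytosine in CpG is written and erased by separate enzymes. DNMT1, brought to newly replicated DNA by UHRF1, copies the mark from the parental strand to the new strand, while DNMT3A and DNMT3B place it on unmethylated DNA, helped in germ cells by the inactive relative DNMT3L. TET1, TET2 and TET3 oxidise methylcytosine in a reaction that uses iron, 2-oxoglutarate and molecular oxygen. SMCHD1 is a chromatin protein of the SMC family that is needed for the methylation of many CpG islands on the inactive X chromosome, where DNMT3B is known to act.

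Smchd1 itself had 55.4, 99.9, 67.2 and 91.9 CPM (counts per 1000000 of the TMM-scaled library) in MD1 replicates 1 to 4, and a lowest, median and highest level of 229, 247 and 265 CPM in the WT libraries. The groups did not overlap and the gene fell by 1.65 ± 0.15 on the log2 scale (SE, edgeR quasi-likelihood test, adjusted p = 0.000746). Libraries held 4195119 to 24125084 counts, the fewest in MD1 replicate 3. A principal component with 38.2% of the variance placed MD1 replicate 4 at -89.0, with the other 9 libraries between -8.53 and 35.7. The next component placed MD1 replicate 3 at -69.5, with the other 9 libraries between -21.2 and 22.5. The library labelled MD1 female replicate 1 went against its label, with 295 counts per 1000000 from 4 Y-linked genes, where the labelled males had 252 to 320 and the other labelled females 0. Its Xist level of 207 counts per 1000000 lay between the 0.601 to 2.11 of the labelled males and the 2594 to 6228 of the other labelled females. All 12 mesenchyme and neural crest markers of the FNP passed the low-count filter, and their summed level was 1080 CPM in MD1 replicate 4, 1514 to 1839 CPM in the other MD1 libraries and 1556 to 2203 CPM in WT. Erythroid markers summed to 20690 CPM in MD1 replicate 4, 2714 to 4385 CPM in the other MD1 libraries and 3090 to 4480 CPM in WT. In such bulk tissue, less RNA of a gene per cell and fewer cells that express it cannot be told apart.

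The 8 genes covered a wide range of levels. On the scale of RPKM, the authors' reads per kilobase, levels in MD1 averaged 68.3 ± 11.8 for Uhrf1, 57.0 ± 8.66 for Dnmt1, 11.2 ± 3.84 for Dnmt3a, 10.2 ± 1.92 for Tet3, 7.91 ± 2.74 for Dnmt3b, 4.70 ± 4.12 for Tet2 and 4.38 ± 1.27 for Tet1 (SD, n = 4). In WT they averaged 77.6 ± 4.16 for Uhrf1, 66.9 ± 2.67 for Dnmt1, 13.9 ± 2.01 for Dnmt3a, 11.2 ± 0.592 for Tet3, 9.67 ± 0.514 for Dnmt3b, 3.59 ± 0.766 for Tet1 and 2.70 ± 0.675 for Tet2 (SD, n = 6). The maintenance pair was thus the most abundant and Tet1 and Tet2 the least abundant of the 7 detected genes in both genotypes. In WT the ranges of neighbours overlapped only for Dnmt3a with Tet3 and for Tet1 with Tet2. In MD1 all neighbours overlapped except Dnmt1 with Dnmt3a, and the order of Tet1 and Tet2 was set by MD1 replicate 4. Dnmt3l was last, with 0 to 3 reads in any library.

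**Figure D1:**
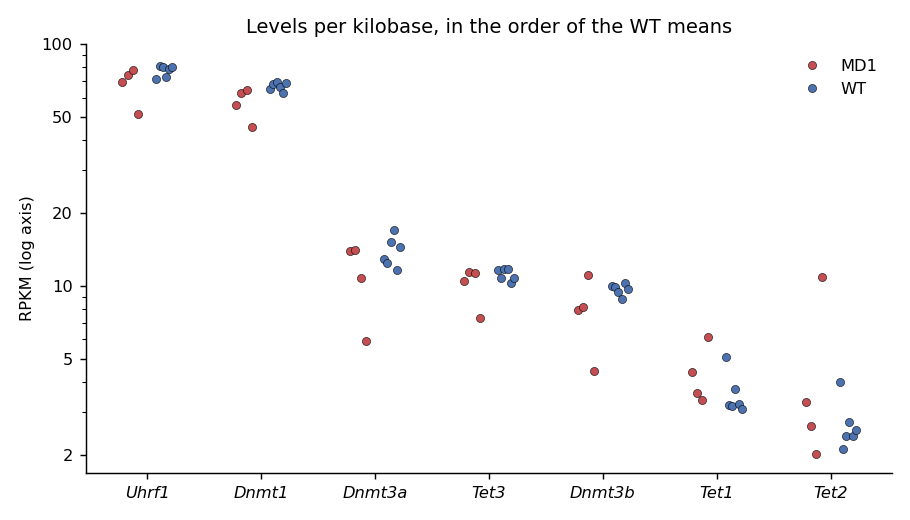
RPKM on a log axis of the 7 detected genes, with 1 point per library, MD1 (red, 4 libraries) left of WT (blue, 6 libraries), ordered by the WT mean. Uhrf1 and Dnmt1 sit above all other genes in every library, and the Tet2 point of MD1 replicate 4 at 10.8 RPKM lies above every other Tet1 and Tet2 point.

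None of the 7 genes that passed the filter on low counts was called between MD1 and WT (edgeR, Benjamini-Hochberg adjusted p at or under 0.05 over 15452 autosomal genes), against 0.0777% of all genes tested, 12 genes of which 11 were higher (0.0712%) and 1, Smchd1, lower (0.00647%). By unadjusted p under 0.05 the count was 2 of 7, Dnmt1 and Tet2, against 9.79% of all genes, and by DESeq2 and limma-voom the adjusted count was also 0 of 7. The median log2 fold change of all genes was 0.00286. None of the 7 genes had all MD1 libraries on the same side of all WT libraries, a pattern found in 0.99% of genes for MD1 above WT and 1.05% for MD1 below WT. The 95% intervals show what size of change remains possible, and they differed greatly in width among the genes.

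**Figure D2:**
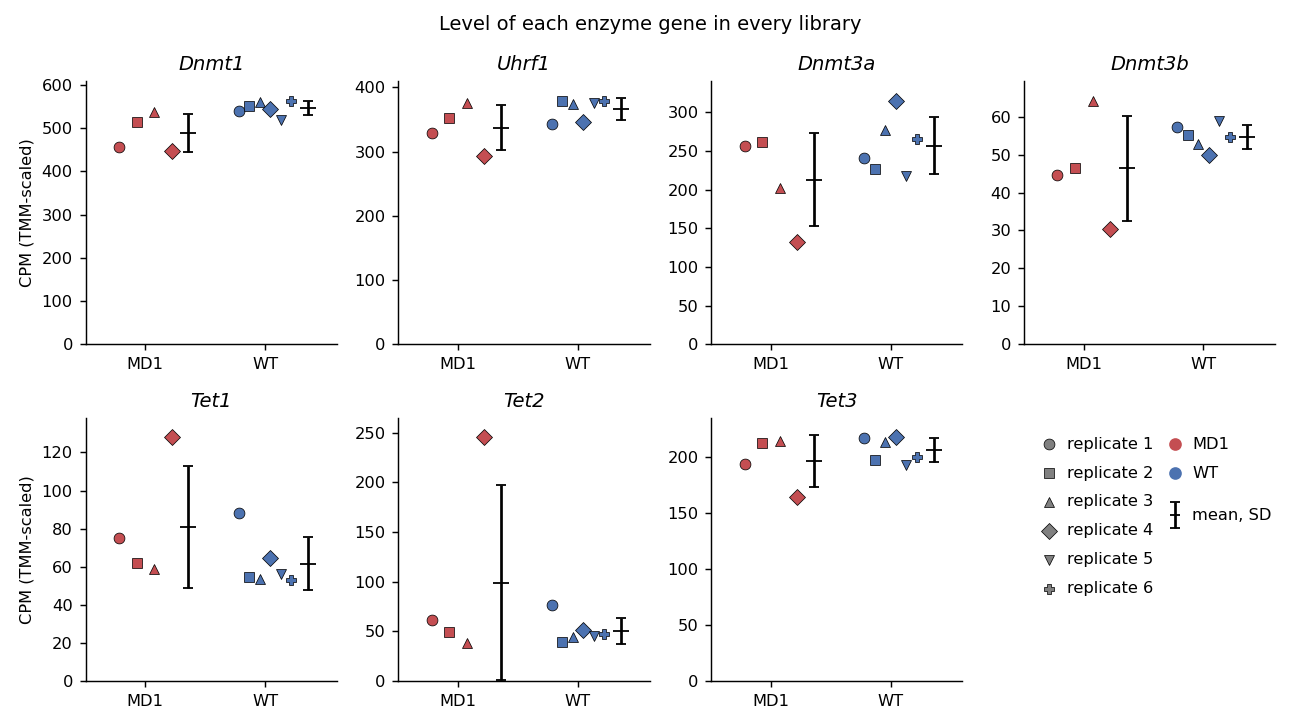
Level in CPM of the 7 detected genes in each library, MD1 (red) left of WT (blue), with the replicate number given by the shape of the point and the mean and SD as bars (n = 4 MD1, n = 6 WT). MD1 replicate 4 (diamond) is the highest of the 10 libraries for Tet1 at 128.0 CPM and Tet2 at 245.6 CPM and the lowest for the other 5 genes.

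The maintenance methyltransferase Dnmt1 (ENSMUSG00000004099) is a protein-coding gene with 39 exon blocks at chr9:20907209-20959888 on the minus strand of GRCm38. It had 456, 514, 537 and 448 CPM in MD1 replicates 1 to 4, and a lowest, median and highest level of 519, 548 and 564 CPM in WT. MD1 replicates 1, 2 and 4 were below all WT libraries, and replicate 3 lay within the WT range. The log2 fold change was -0.16 ± 0.07 (SE, 95% interval -0.31 to -0.01, edgeR adjusted p = 0.502). Dnmt1 was also the steadiest of the 7 genes among WT libraries, with a coefficient of variation of 3.03%, against a median of 6.24% for the 510 genes whose mean level lay within a factor of 2 of its own.

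Uhrf1 (ENSMUSG00000001228, chr17:56303321-56323486, plus strand, 18 exon blocks), whose protein binds hemimethylated CpG, had 328, 352, 376 and 294 CPM in MD1 replicates 1 to 4. Its lowest, median and highest WT levels were 343, 375 and 380 CPM. MD1 replicates 1 and 4 were below the WT range, and replicates 2 and 3 were inside it. Its log2 fold change was -0.12 ± 0.08 (SE, 95% interval -0.29 to 0.05, edgeR adjusted p = 0.577). The log2 ratio of Uhrf1 to Dnmt1 within a library, which does not depend on scaling, was -0.54 ± 0.06 in MD1 and -0.58 ± 0.07 in WT, a difference of 0.04 (SD, n = 4 and 6, 2-sided exact permutation test, p = 0.357, adjusted over 3 ratios p = 0.536). With 4 and 6 libraries the smallest p that such an exact test can give is 0.00476.

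The promoters of this pair are shown because Dnmt1 and Uhrf1 are known as genes of the S phase programme that E2F factors drive. RefSeq windows on GRCm38.p6 run from 250 bases before to 50 after a start site, and of the 3 windows of Dnmt1 and the 2 of Uhrf1 the window with most CpG is given, at chr9:20952574-20952873 on the minus strand and chr17:56304063-56304362 on the plus strand. Capitals mark the letters TTTCCCGC, TTTCGCGC, TTTGCCGC or TTTGGCGC on either strand, the spellings of the E2F motif that were searched.
Dnmt1: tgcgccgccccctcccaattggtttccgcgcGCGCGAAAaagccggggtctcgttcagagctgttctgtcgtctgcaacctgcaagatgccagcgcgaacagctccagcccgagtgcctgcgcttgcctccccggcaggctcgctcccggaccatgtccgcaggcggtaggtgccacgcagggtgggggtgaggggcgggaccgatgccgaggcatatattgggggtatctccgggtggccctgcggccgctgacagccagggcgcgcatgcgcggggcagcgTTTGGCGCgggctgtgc
Uhrf1: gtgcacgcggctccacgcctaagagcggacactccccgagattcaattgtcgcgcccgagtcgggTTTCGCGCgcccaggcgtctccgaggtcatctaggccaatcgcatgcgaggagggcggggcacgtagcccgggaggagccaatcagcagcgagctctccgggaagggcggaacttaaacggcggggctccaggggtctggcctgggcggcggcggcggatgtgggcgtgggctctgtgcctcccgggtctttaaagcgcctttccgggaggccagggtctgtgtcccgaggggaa
Dnmt1 held 2 matches and Uhrf1 held 1 in these windows and 0 in their other windows, while 2.26% of the 32851 promoter windows held any. Every spelling searched contains CG and the windows shown were those with most CpG, so that share is not a matched background. No window of the other 6 genes held a match. Both windows carried 33 CpG, against a median of 7 in all windows. A match is a description of the letters and was not tested as a binding site.

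Genes of DNA replication were read beside the pair. Of 14 S phase genes tested, 14 had a fold change below 0 and none passed the threshold, with a median log2 fold change of -0.12 (0.00286 over all genes), and 1 had an unadjusted p under 0.05. Without MD1 replicate 4, 9 were below 0 and 5 above, with a median of -0.03. The smallest p belonged to Gins2, a subunit of the replicative helicase, at a log2 fold change of -0.24 ± 0.08 (SE, edgeR adjusted p = 0.496), followed by Mcm7, a second helicase subunit, at -0.20 ± 0.11 (adjusted p = 0.529). The S phase score, the mean log2 level of these genes against the WT mean, was -0.17, 0.03, 0.01 and -0.51 in MD1 replicates 1 to 4 and -0.06 to 0.06 in WT. MD1 replicates 1 and 4, which had the lowest S phase scores, also had the lowest Dnmt1 and Uhrf1 levels of the 10 libraries. For mitosis genes, 2 of 9 were above 0 and 7 below, with a median of -0.06 and none past the threshold, and the leading genes were the mitotic kinases Aurkb (-0.21 ± 0.07, edgeR adjusted p = 0.496) and Plk1 (-0.37 ± 0.19, adjusted p = 0.518). Without MD1 replicate 4, 5 mitosis genes were above 0 and 4 below, with a median of 0.02. The part of cell proliferation in the levels of Dnmt1 and Uhrf1 was not tested.

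Dnmt3a (ENSMUSG00000020661, chr12:3806007-3914443, plus strand, 32 exon blocks), a methyltransferase for unmethylated DNA, had 256, 261, 203 and 132 CPM in MD1 replicates 1 to 4. In WT it had a lowest, median and highest level of 217, 253 and 315 CPM. MD1 replicates 3 and 4 were below all WT libraries, and replicates 1 and 2 lay inside the WT range. For MD1 over WT the log2 fold change was -0.27 ± 0.17 (SE, 95% interval -0.65 to 0.11, edgeR adjusted p = 0.575), and -0.09 (-0.33 to 0.15) without MD1 replicate 4. Dnmt3a varied among WT libraries with a coefficient of variation of 14.1%, more than 95.7% of the 1739 genes at a similar level. Its antisense neighbour Dnmt3aos, which shares 133 exonic bases with it, had 0 reads in all 10 libraries. MD1 replicates 4 and 3 and WT replicate 5 had the lowest Dnmt3a levels and the lowest summed mesenchyme and neural crest markers (1080, 1514 and 1556 CPM). WT replicate 4 had the highest of both, with 2203 CPM of the markers. WT replicate 6 departed from this order, with 1567 CPM of the markers and 265 CPM of Dnmt3a. The part of cell composition in the Dnmt3a level was not tested.

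Dnmt3b (ENSMUSG00000027478, chr2:153649450-153687730, plus strand, 24 exon blocks), the related enzyme that acts on CpG islands of the inactive X, had 44.5, 46.5, 64.3 and 30.4 CPM in MD1 replicates 1 to 4. The lowest, median and highest WT levels were 49.8, 55.0 and 58.8 CPM. The MD1 libraries lay outside the WT range on both sides, with replicates 1, 2 and 4 below it and replicate 3, the shallowest library, above it on 266 reads. The coefficient of variation was 29.9% in MD1 and 5.83% in WT. The medians of the 5083 genes at a similar level were 15.7% in MD1 and 7.76% in WT, so the median for such genes was also higher in MD1. The log2 fold change was -0.25 ± 0.16 (SE, 95% interval -0.59 to 0.09, edgeR adjusted p = 0.566), and -0.11 (-0.33 to 0.12) without MD1 replicate 4.

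The balance of the pair of de novo enzymes was measured as the log2 ratio of Dnmt3a to Dnmt3b counts, which averaged 2.19 ± 0.40 in MD1 and 2.22 ± 0.28 in WT (SD, n = 4 and 6). The difference of -0.03 was smaller than the spread in either group (2-sided exact permutation test, p = 0.905). Single libraries ranged over 1.65 to 2.52 in MD1 and 1.88 to 2.66 in WT, so the groups overlapped widely.

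Dnmt3l (ENSMUSG00000000730, chr10:78041947-78063622, plus strand) had 4 reads in all MD1 libraries together and 7 in all WT libraries, equal to 0.0815 per 1000000 counts in MD1 (exact Poisson 95% interval 0.0222 to 0.209) and 0.072 in WT (0.029 to 0.148), counting error only. No library held more than 3 reads, 2 of the MD1 and 2 of the WT libraries held 0, and no difference was detectable at this depth. The most CpG-rich of its 3 promoter windows held 6 CpG, against 17 to 57 in that of each of the other genes. Of 7 markers of germ and pluripotent cells, 4 passed the low-count filter and none passed the threshold, and the list summed to 61.4 to 77.1 CPM in MD1 and 58.8 to 68.7 CPM in WT. Most of that was Kit (63.7 ± 7.14 CPM in MD1 and 55.9 ± 2.70 CPM in WT, SD, n = 4 and 6), a receptor that other cells such as melanoblasts also express, while Pou5f1 and Dppa3 had a mean of 0.0 CPM in MD1 and 0.00679 and 0.0 CPM in WT.

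Tet1 (ENSMUSG00000047146, chr10:62804570-62908996, minus strand, 18 exon blocks), which encodes a dioxygenase with a CXXC domain that binds CpG-rich DNA, had 75.1, 61.8, 59.0 and 128.0 CPM in MD1 replicates 1 to 4. In WT its lowest, median and highest levels were 52.9, 55.4 and 88.4 CPM, the highest in WT replicate 1. Only MD1 replicate 4 was above the WT range, and the other 3 MD1 libraries were within it. For Tet1 the log2 fold change was 0.40 ± 0.22 (SE, 95% interval -0.06 to 0.87, edgeR adjusted p = 0.526), and 0.11 (-0.21 to 0.43) without MD1 replicate 4.

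Tet2 (ENSMUSG00000040943, chr3:133463679-133545139, minus strand, 14 exon blocks), the TET enzyme without a CXXC domain of its own, had 61.7, 49.4, 38.7 and 245.6 CPM in MD1 replicates 1 to 4. Its lowest, median and highest WT levels were 39.1, 46.3 and 76.0 CPM, again highest in WT replicate 1. MD1 replicate 4 stood at 4.86 times the WT mean, replicate 3 was just below the WT range and the other MD1 libraries lay inside it. The log2 fold change was 0.99 ± 0.43 (SE, 95% interval 0.05 to 1.93, edgeR adjusted p = 0.502). Without MD1 replicate 4 it was 0.03, with an interval of -0.36 to 0.42. Among WT libraries the coefficient of variation was 26.0% for Tet2 and 22.3% for Tet1, more than 98.6% and 98.1% of genes at a similar level.

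Tet3 (ENSMUSG00000034832, chr6:83362373-83459084, minus strand, 14 exon blocks), the third enzyme of the family, had 193.5, 213, 214 and 165 CPM in MD1 replicates 1 to 4, and a lowest, median and highest level of 192.8, 206 and 218 CPM in WT. Replicate 4 was below the WT range and the other 3 MD1 libraries were inside it. Its log2 fold change was -0.07 ± 0.08 (SE, 95% interval -0.26 to 0.11, edgeR adjusted p = 0.735), the narrowest interval among the TET genes, and 0.00 without MD1 replicate 4.

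The make-up of TET transcripts was set apart in MD1 replicate 4. Per kilobase, Tet3 supplied 30.2% of the summed RPKM of the 3 genes in that library, 57.6% to 67.7% in the other MD1 libraries and 56.0% to 67.8% in WT. Tet2 supplied 44.5% in that library, 12.1% to 18.2% in the other MD1 libraries and 13.1% to 19.4% in WT. The log2 ratio of Tet1 to Tet3 averaged -1.34 ± 0.69 in MD1 and -1.76 ± 0.25 in WT (SD, n = 4 and 6, difference 0.42, 2-sided exact permutation test, p = 0.214, adjusted over 3 ratios p = 0.536), and the difference was 0.10 without MD1 replicate 4.

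The promoter windows of Tet1 (chr10:62887275-62887574) and Tet2 (chr3:133544341-133544640), both on the minus strand, are shown because these are the genes that were highest in MD1 replicate 4. Capitals mark ACGTG or GCGTG on either strand, the core letters to which hypoxia-inducible factors bind.
Tet1: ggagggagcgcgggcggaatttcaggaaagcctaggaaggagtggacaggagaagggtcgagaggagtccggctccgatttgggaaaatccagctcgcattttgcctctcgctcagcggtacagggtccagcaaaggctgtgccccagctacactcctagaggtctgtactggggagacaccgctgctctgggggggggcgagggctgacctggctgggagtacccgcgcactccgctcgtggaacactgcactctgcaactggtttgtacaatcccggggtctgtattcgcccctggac
Tet2: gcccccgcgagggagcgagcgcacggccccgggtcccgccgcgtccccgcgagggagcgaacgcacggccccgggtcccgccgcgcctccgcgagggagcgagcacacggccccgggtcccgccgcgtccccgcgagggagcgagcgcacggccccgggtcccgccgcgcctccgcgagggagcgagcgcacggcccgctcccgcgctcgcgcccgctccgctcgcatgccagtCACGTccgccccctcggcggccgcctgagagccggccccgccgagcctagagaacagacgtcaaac
Tet2 held 1 match, none of it part of a CACGTG box, and Tet1 held 0, while 43.8% of all windows held at least 1. Of the other genes, the windows of Dnmt3b and Tet3 held 0 as well, and Dnmt1, Uhrf1, Dnmt3a and Dnmt3l each had a window that held 1 or more. The Tet2 window carried 57 CpG, more than 99.8% of windows, and the Tet1 window 17. Both spellings searched contain CG, so the 43.8% over all windows is not a matched background. A match here too describes the letters and was not tested as a binding site.

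**Figure D3:**
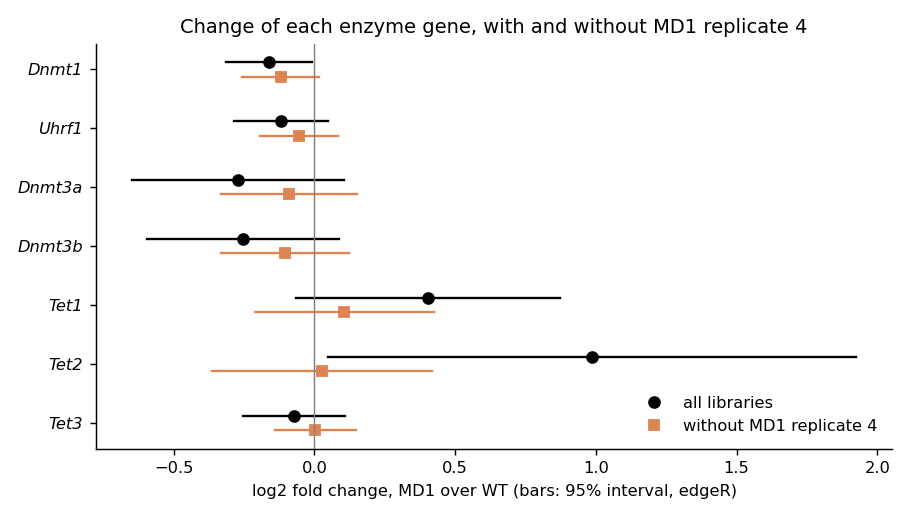
Log2 fold change of MD1 over WT for the 7 tested genes with its 95% interval from edgeR, over all 10 libraries (black circles) and without MD1 replicate 4 (orange squares). The Tet2 point moves to 0.03 from 0.99 when that library is left out, and the Dnmt1 point stays below 0 at -0.12, with an interval that then reaches 0.02.

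MD1 replicate 4 was the extreme library for every tested gene, the highest of 10 for Tet1 and Tet2 and the lowest for Dnmt1, Uhrf1, Dnmt3a, Dnmt3b and Tet3. Over all genes tested it was the highest for 31.5% and the lowest for 30.1%. Against the WT mean its level was 0.819 for Dnmt1, 0.803 for Uhrf1, 0.513 for Dnmt3a, 0.556 for Dnmt3b, 2.08 for Tet1 and 0.798 for Tet3. With this library left out, the largest fold change of the 7 genes by size was that of Dnmt1, -0.12 (95% interval -0.26 to 0.02), and all adjusted p-values in edgeR were 0.845 or above.

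Genes of the hypoxia response were read beside the TET genes. All 14 that were tested had a fold change above 0, with a median log2 of 1.80 (0.00286 over all genes), and all 14 had an unadjusted p under 0.05, against 9.79% of all genes. The list was chosen with earlier results of these data known, so that share does not test the list. None passed the threshold. Without MD1 replicate 4 all 14 were still above 0, with a median of 0.45. P4ha1, a collagen prolyl hydroxylase, had 1084 CPM in MD1 replicate 4, 401 ± 460 CPM in MD1 and 126 ± 46.1 CPM in WT (SD, n = 4 and 6, log2 fold change 1.67 ± 0.53, edgeR adjusted p = 0.496), and the mitochondrial protein gene Higd1a stood at 1.34 ± 0.42 on the same scale (adjusted p = 0.496).

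The hypoxia score, built like the S phase score, was 1.28, -0.42, -0.30 and 3.61 in MD1 replicates 1 to 4. In WT it was 1.28 in replicate 1 and -0.56 to -0.12 in the other 5 libraries. The 3 libraries with the highest score, MD1 replicate 4, MD1 replicate 1 and WT replicate 1, were also the 3 with the highest Tet1 and the 3 with the highest Tet2 level, across both genotypes. Below them the order did not follow the score. WT replicate 4 had the lowest score, -0.56, and the next highest Tet1 and Tet2 levels, 64.3 and 51.4 CPM. Dnmt3a and Dnmt3b were low in MD1 replicate 4 and lay within the range of the other libraries in WT replicate 1. In MD1 replicate 1 Dnmt3a lay inside the WT range and Dnmt3b, at 44.5 CPM, lay below it. MD1 replicate 2, with a score of -0.42, also had Dnmt3b below the WT range, at 46.5 CPM. Markers of yolk sac endoderm and liver also stood out in MD1, with summed levels of 372 and 101 CPM in replicates 1 and 4, 2.89 and 3.63 CPM in replicates 2 and 3 and 6.06 to 34.8 CPM in WT. The part of the hypoxia genes and of these cell types in the levels of the TET and DNMT3 genes was not tested.

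**Figure D4:**
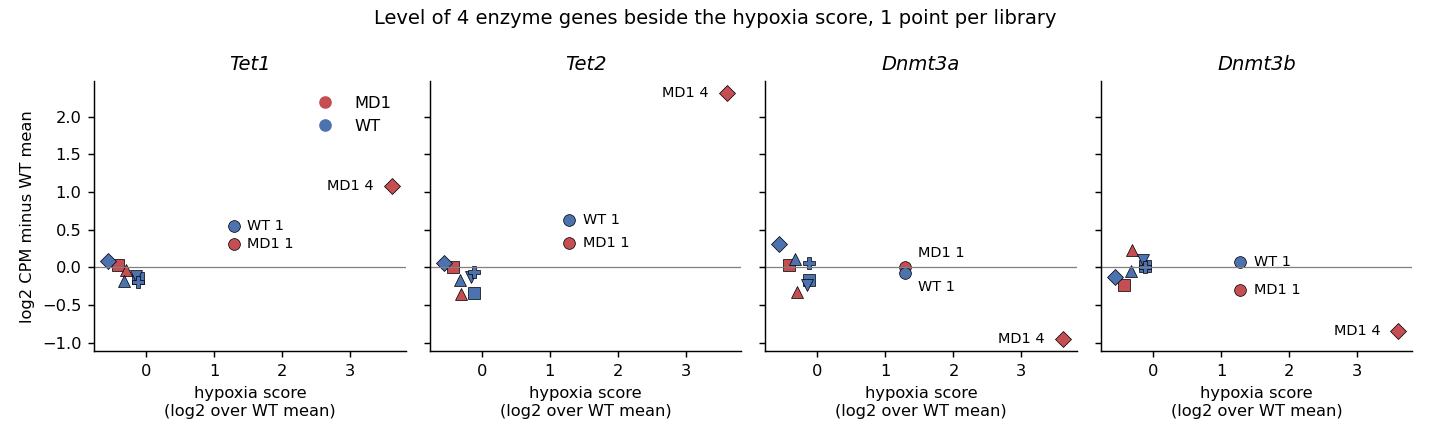
Log2 CPM against the WT mean of Tet1, Tet2, Dnmt3a and Dnmt3b (y axis) beside the hypoxia score of the same library (x axis, log2 against the WT mean), with MD1 in red, WT in blue and the replicate number given by the shape of the point. MD1 replicate 4 lies far right at 3.61, MD1 replicate 1 and WT replicate 1 lie at 1.28 and have the next highest Tet1 and Tet2 levels, and the other 7 libraries lie below 0.

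Labelled sex was compared within WT first. Female against male WT libraries gave 0 called genes in edgeR (196 genes, 1.27%, at an unadjusted p under 0.05), and the 7 genes had log2 differences of -0.17 to 0.10. This fit shared its spread with the MD1 libraries labelled female, which lay far apart. A lack of calls therefore does not show that the sexes are alike. The effect of MD1 in labelled females less that in labelled males was 1.92 ± 0.65 for Tet2 and 0.92 ± 0.36 for Tet1 (SE, edgeR adjusted p = 0.450 and 0.469), and 0 genes passed the threshold (1604, 10.4%, at an unadjusted p under 0.05). Contrasts within labelled females and within labelled males called 2 (0.0129%) and 3 genes (0.0194%), none of the 7. Within labelled females the Tet2 log2 fold change was 1.67 ± 0.44 and within labelled males -0.24 ± 0.47 (SE, edgeR adjusted p = 0.151 and 0.999). When the library labelled MD1 female replicate 1 was left out, the female arm of MD1 was replicate 4 alone, whose spread was assumed to be that of the other groups. In that fit the contrast within labelled females called all 7 genes (edgeR adjusted p = 6.07e-05 for Tet2 to 0.0481 for Tet3) and 5272 genes (34.1%) in all, so a single MD1 library carries these calls. That fit called the MD1 effect in labelled females less that in males for 4 of the 7 genes and 3534 genes (22.9%) in all. The 4 were Tet2 (2.58 ± 0.35), Tet1 (1.25 ± 0.30), Dnmt3a (-0.92 ± 0.25) and Dnmt3b (-0.83 ± 0.22, log2, SE, edgeR). Sex and the state of that library cannot be told apart there.

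Partners and substrates of the enzymes were counted from lists of named genes, and no gene of any of them passed the threshold. Of 16 genes for maintenance and recruitment, 8 were above 0 and 8 below, with a median log2 fold change of -0.00329 (0.00286 over all genes), and the leading genes were the H3K9 methyltransferases Ehmt2 (-0.19 ± 0.07, edgeR adjusted p = 0.496) and Ehmt1 (-0.15 ± 0.08, adjusted p = 0.518). Of 6 readers of methylated CpG, 4 were above and 2 below with a median of 0.04, led by the methyl-CpG binding proteins Mbd2 (0.21 ± 0.10, edgeR adjusted p = 0.508) and Mbd3 (-0.11 ± 0.07, adjusted p = 0.563). Zbtb33, an X-linked zinc finger reader, had 98.3 ± 10.8 CPM in MD1 and 94.0 ± 5.32 CPM in WT (SD, n = 4 and 6). Of 8 genes with a CXXC domain for unmethylated CpG, 1 was above and 7 below with a median of -0.06, led by the H3K4 methyltransferase Kmt2b (-0.16 ± 0.09, edgeR adjusted p = 0.532) and the F-box gene Fbxl19 (-0.21 ± 0.12, adjusted p = 0.534). Without MD1 replicate 4, 4 of these 8 were above 0 and 4 below, with a median of -0.01.

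Downstream of TET oxidation, 7 of 12 genes of base excision and the GADD45 family were above 0 and 5 below, with a median of 0.04. Gadd45b, a stress-induced gene of that family, had 18.2 CPM in MD1 replicate 4, 6.77 ± 7.66 CPM in MD1 and 2.85 ± 0.951 CPM in WT (SD, n = 4 and 6, log2 fold change 1.32 ± 0.51, edgeR adjusted p = 0.496), and Gadd45a stood at 0.55 ± 0.27 on the same scale (adjusted p = 0.511). Ogt, the X-linked O-GlcNAc transferase that binds TET proteins, had 1422 CPM in MD1 replicate 4, 428 to 520 CPM in the other MD1 libraries and 382 to 453 CPM in WT. Of 14 genes that supply the methyl donor or 2-oxoglutarate, 8 were above 0 and 6 below, with a median of 0.01. They were led by Shmt2, a serine hydroxymethyltransferase of mitochondria (0.62 ± 0.32, edgeR adjusted p = 0.518), and Mat2b, a subunit of methionine adenosyltransferase (0.12 ± 0.07, adjusted p = 0.560). Shmt2 had 350 CPM in MD1 replicate 4, 78.9 to 140 CPM in the other MD1 libraries and 82.7 to 144 CPM in WT. In the same list, Mat2a, the catalytic subunit, had 158 CPM in MD1 replicate 4, 381 to 487 CPM in the other MD1 libraries and 365 to 455 CPM in WT. Idh1, the cytosolic isocitrate dehydrogenase, had 70.4 CPM in MD1 replicate 4, 145 to 183 CPM in the other MD1 libraries and 154 to 179 CPM in WT, and both of these genes were chosen after their values were seen.

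Germline genes whose promoters are kept silent by methylation in somatic cells were scarcely detected. Of 13 such genes, 5 had 0 reads in every library, and 1 passed the filter, Sycp3, a protein of the meiotic synaptonemal complex, with 1.35 ± 0.641 CPM in MD1 and 1.79 ± 0.276 CPM in WT (SD, n = 4 and 6, log2 fold change -0.29 ± 0.30, edgeR adjusted p = 0.712). The summed level of the list was 0.725 to 2.69 CPM in MD1 and 2.05 to 2.73 CPM in WT.

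Genes with the pattern most like each of the 3 most variable enzymes were found by the root mean square (RMS) difference of centred log2 levels over the 10 libraries. For Tet2, whose own RMS about its mean was 0.749, these were Foxo3, a forkhead transcription factor (0.116), 1810026B05Rik (0.139) and Ccng2, a cyclin G gene (0.139). For Tet1 (0.384) they were Wsb1, a SOCS box protein gene (0.103), Cep152, a centrosomal gene (0.107), and Gpt2, an alanine aminotransferase gene (0.111). For Dnmt3a (0.326) they were Frmd6, a FERM domain gene (0.0746), Efr3b (0.0784) and Mxd4, a MAX dimerisation gene (0.0798). Foxo3 followed Tet2 with 198 CPM in MD1 replicate 4, 39.1 to 61.8 CPM in the other MD1 libraries and 41.2 to 78.5 CPM in WT. Efr3b lies on the same chromosome as Dnmt3a, at chr12:3962554-4038915 on the minus strand, 48.1 kilobases beyond its end. None of these 9 genes was called between MD1 and WT (edgeR adjusted p of 0.498 to 0.757), against 0.0777% of all genes tested. They were picked for likeness to Tet2, Tet1 and Dnmt3a, which were not called, over the same libraries. Their lack of calls is therefore not a separate result.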

How the data were processed

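RNA-seq counts per gene for 10 FNP libraries (4 MD1, 6 WT, grouped by their labels) and log2 RPKM values of the same libraries were deposited by the authors. Per the study's methods and the submitters' processing notes, trimming used Trim Galore 0.4.4, alignment to GRCm38.p6 used HISAT2 2.0.5 and quantification used SeqMonk. The authors made the log2 values by correcting counts for library size and transcript length, with zeros replaced. The kit does not mark strand. Genotype averages deposited beside the libraries, 0 columns of other samples and the 13 mitochondrial genes (0 reads) entered no test. In the count table of 35591 rows, 27 symbols turned into dates were restored and 49 repeated identifiers dropped. All 45 library pairs differed by more than sampling noise.

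The deposited counts were tested with edgeR 4.0.16 (R 4.3.3; filterByExpr, 15982 genes, TMM, quasi-likelihood, Benjamini-Hochberg over 15452 autosomal genes, threshold 0.05, following the study's exclusion of sex chromosomes), all 10 libraries and no covariate. A model with 4 genotype-by-sex means gave the sex contrasts. The fit was tested on simulated data. Ratios and scores used log2 CPM with a prior count of 2. Alternatives were DESeq2 1.42.0, limma 3.58.1, the exact test, other scalings, no filter, sex or replicate as a term, and libraries left out. Exon structures are from GENCODE, promoters from RefSeq (GRCm38.p6; all 8 genes matched). Named were the 8 genes, Smchd1, the 2 genes of each pathway list with the smallest p (X-linked genes by level, of which 1 is not reported here) and, for the 3 enzymes of widest range, the 3 nearest genes in pattern. The 8 genes and all lists were chosen with earlier results of these data known. Depth was 4195119 to 24125084 counts. Other overlaps, up to 67 exonic bases for Dnmt3l with Aire and 43 for Tet2 with an antisense gene, cannot be resolved without strand.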

Additional observations from a re-analysis of the deposited data

Results flagged for a closer look

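Of 24 groups of libraries examined, 4 held a library far from the rest. Chance gives about 1 in 20 for a single group. The groups reuse the same libraries, and the ratio of Tet1 to Tet3 contains Tet1, so the 4 are not independent and cannot be weighed against that rate. Tet2 in MD1 replicate 4 was 245.6 CPM, with the other 3 MD1 libraries between 38.7 and 61.7 CPM. WT replicate 1 lay apart from the other 5 WT libraries for Tet1 at 88.38 CPM, for Tet2 at 76.01 CPM and for the log2 ratio of Tet1 to Tet3 at -1.296. The causes were not tested.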

How the results depend on the processing

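None of the 7 tested enzyme genes was called between MD1 and WT over both sexes under any of the 23 alternatives, and the lowest adjusted p was 0.257, in fits that left out 1 library. The 12 genes called overall in edgeR became 51 with DESeq2, 30 with the exact test, 4 (3 higher and 1 lower, against 11 and 1) with limma on log2 RPKM, 6 without both libraries labelled MD1 female, and 4 to 13 when 1 library was left out (7 or fewer without MD1 replicate 1 or 3 or WT replicate 1, 2, 3, 5 or 6). With the replicate number as a block all 12 calls were lost, so that the count was 0 (362 genes at an unadjusted p under 0.05), and Smchd1 at -1.69 had an adjusted p of 0.142 in edgeR. None of the 7 enzyme genes was called with or without the block, so it had no call among them to remove. WT replicates 5 and 6 have no MD1 library of the same number and did not inform the genotype difference in that fit. Same-numbered libraries did not deviate together (correlations of -0.118 to 0.0497), which gives no sign that the numbers pair them.

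Leaving out both libraries labelled MD1 female turned Tet1 to -0.0159, Tet2 to -0.16, Tet3 to 0.0509 and the log2 ratio of Tet1 to Tet3 to -0.0541. In the same fit the log2 fold change shrank to -0.00229 for Dnmt3b, -0.00664 for Uhrf1, -0.0532 for Dnmt1 and -0.14 for Dnmt3a. Leaving out MD1 replicates 3 and 4 turned Dnmt3a to 0.00601 and the log2 ratio of Dnmt3a to Dnmt3b to 0.28, and this ratio ranged from -0.14 to 0.15 when 1 library was left out. Tet3 was 0.00309 without MD1 replicate 4 and 0.0148 without WT replicate 1 and MD1 replicate 4 together, a setting chosen after seeing the data. When the library labelled MD1 female replicate 1 was left out, the sex difference in the MD1 effect was called for 3534 genes and WT female against male for 4, against 0 each. The causes were not tested. When 1 library was left out, the log2 fold change ranged over 0.03 to 1.24 for Tet2, 0.11 to 0.53 for Tet1, -0.39 to -0.09 for Dnmt3a, -0.43 to -0.11 for Dnmt3b, -0.21 to -0.12 for Dnmt1, -0.17 to -0.06 for Uhrf1 and -0.12 to 0.00 for Tet3. At this number of libraries the 95% intervals reached 1.93 for Tet2 and -0.31 for Dnmt1.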
